A study of Homo sapiens with 6 samples.

Results

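THP-1 cells transfected with a mimic of miR-146a-5p were compared with THP-1 cells transfected with a negative control mimic (mimic NC). The comparison used 2 of the 6 arrays of the series, 1 for each mimic, chosen by their titles. The other 4 arrays, of cells given let-7d-3p, let-7e-5p, miR-130a-3p or miR-151a-3p mimics, served to show which differences were seen only with miR-146a-5p.

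THP-1 is a human cell line from a monocytic leukaemia. All 6 cultures, the control included, were treated with 100 ng/ml PMA, a phorbol ester that turns these cells into macrophage-like cells, for 2 days. The mimics were then introduced with a lipid reagent, and the RNA was taken after 24 hours. The study asked which genes each miRNA alters in these cells. The treatment text of the labels names a let-7a-5p mimic for every sample, so the groups rest on the titles alone, and the 2 in the title of the control is not explained there. The labels give Trizol for the RNA and the study's methods give a column kit. Each group was a single culture of a single line, so no replicate error could be measured and no test was possible. All values below are log2 signals of single arrays, and the differences describe these 2 cultures.

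miR-146a is a microRNA that NF-kB switches on when Toll-like receptors are engaged. It is known for lowering TRAF6 and IRAK1, which carry the signal from Toll-like and interleukin-1 receptors, and so for acting as a brake on inflammatory signalling in monocytes. A microRNA recognises its messenger RNAs mainly through its seed, a short stretch near its 5′ end. Cells that sense viral RNA or DNA release interferons, which act through JAK kinases, STAT proteins and IRF9 on a DNA element called the ISRE to switch on a large set of interferon-stimulated genes.

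The mature miRNA sequences are shown because the results below set miR-146a-5p beside let-7e-5p and let-7d-3p. They are written 5′ to 3′ from RefSeq (GRCh38.p14), with the seed, bases 2 to 8, in capitals. Whether the mimics had exactly these ends is not given in the sources used here.

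miR-146a-5p: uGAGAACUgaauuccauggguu
let-7e-5p: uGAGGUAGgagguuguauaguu
let-7d-3p: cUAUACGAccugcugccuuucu

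miR-146a-5p lies at chr5:160485372-160485393 on the plus strand. Its seed is shared by 3 mature miRNAs of the table, the other 2 being miR-146b-5p, which has the same first 17 bases, and miR-7153-5p. let-7e-5p begins with the same 4 bases as miR-146a-5p and then differs, so the 2 seeds are not the same. let-7d-3p shares no base at its start.

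The arrays held 21448 probe sets, and a gene symbol was given for 17709 of them (82.57%), from 17687 genes. The median signal was between 6.92 and 6.95 on the 6 arrays. Background was set at a log2 signal of 5.387, the level under which 95% of the values of 349 olfactory receptor probe sets lay, and 11477 genes had a mean over the 6 arrays above it. The macrophage markers were at high signal in both cultures: CD68 had 15.48 with miR-146a-5p and 15.39 with mimic NC, and CSF1R, the receptor of macrophage colony-stimulating factor, had 15.39 with miR-146a-5p and 15.66 with mimic NC. Of 20 macrophage and monocyte markers above background, 12 were higher and 8 lower with miR-146a-5p, with a median difference of 0.02. The T cell gene CD3D (3.19 with miR-146a-5p and 3.33 with mimic NC) and the B cell gene MS4A1 (4.53 with miR-146a-5p and 4.36 with mimic NC) were below background in both, although the labels call the cells lymphocyte-like.

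Most genes had nearly the same signal in both cultures. Whole cultures were measured, so fewer cells of a kind and less RNA per cell cannot be told apart. Of the 11477 genes, 10911 (95.07%) were within 1.5-fold, and the median difference of miR-146a-5p minus mimic NC was 0.01 on the log2 scale. The differences had a standard deviation of 0.28 over genes and a robust one of 0.22, which holds array noise and any response together. At 1.5-fold, 342 genes (2.98%) were higher and 224 (1.95%) lower with miR-146a-5p. At 2-fold these were 33 and 14 genes. Any difference upward was seen in 5868 genes (51.1%) and downward in 5394 (47.0%).

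At 3-fold, the size the study used, 7 of the 21448 probe sets were higher (0.0326%) and 5 lower (0.0233%). The 7 higher ones included 2 without a symbol. The 4 with a signal above background on both arrays were the chemokine genes, CXCL11, CXCL10, CCL2 and CCL8. None of the 5 lower ones was above background on both arrays. They were STARD6, LRP1B and 3 probe sets without a symbol. KLRB1, a receptor of NK cells, also passed 3-fold but was below background on both arrays, with 4.44 for miR-146a-5p and 2.72 for mimic NC.

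**Figure D1:**
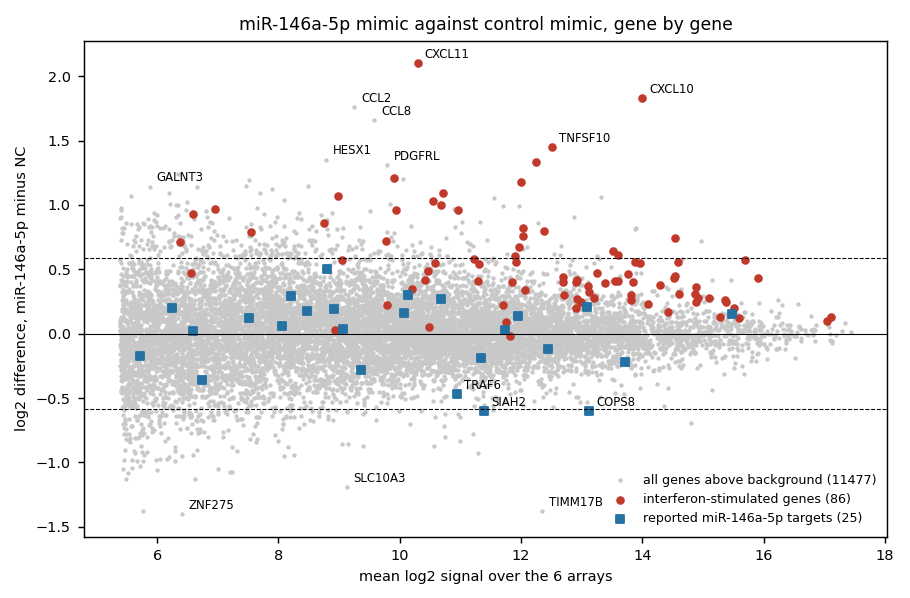
Log2 difference of miR-146a-5p minus mimic NC (vertical axis) against the mean log2 signal over the 6 arrays (horizontal axis), 1 point per gene above background. Dashed lines mark 1.5-fold. Red interferon-stimulated genes lie above 0 with 1 exception of 86, while the blue reported targets lie on both sides of 0, from -0.60 to 0.50.

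The chemokines led the list. CXCL11 and CXCL10 attract activated T cells through the receptor CXCR3. CXCL11 had a signal of 12.05 with miR-146a-5p, 12.02 with let-7e-5p, 9.72 with miR-151a-3p, 9.28 with miR-130a-3p, 8.75 with let-7d-3p and 9.95 with mimic NC. The difference from mimic NC was 2.10, or 4.29-fold. CXCL10 had 15.42 with miR-146a-5p, 15.54 with let-7e-5p, 13.37 with miR-151a-3p, 13.06 with miR-130a-3p, 13.03 with let-7d-3p and 13.59 with mimic NC (3.56-fold higher than mimic NC). The miR-146a-5p and let-7e-5p arrays stood together at the top for both genes, and the other 4 arrays lay well under them.

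The same 2 arrays were the highest for CCL2 and CCL8, which attract monocytes. CCL2 was 10.43 with miR-146a-5p, 10.83 with let-7e-5p, between 8.40 and 8.58 with the other 3 mimics and 8.67 with mimic NC. CCL8 was 10.84 with miR-146a-5p, 10.90 with let-7e-5p, between 8.39 and 9.47 with the other 3 mimics and 9.18 with mimic NC. For CXCL10, CCL2 and CCL8 the highest array was that of let-7e-5p, so none of these 3 was particular to miR-146a-5p. Most chemokines were not higher. Of 25 chemokine genes above background, 10 were higher and 15 lower with miR-146a-5p. The 1.5-fold threshold was passed by 4 upward (16.0%, against 2.98% of all genes) and by 1 downward, CXCL1 (4.0%, against 1.95%).

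Further genes among the 15 highest differences had less to do with leukocyte traffic. HESX1, a homeobox repressor known from pituitary development, had 9.99 with miR-146a-5p and 8.64 with mimic NC (2.55-fold). PDGFRL, which resembles a platelet-derived growth factor receptor, had 10.98 with miR-146a-5p and 9.67 with mimic NC (2.48-fold). ETV7, an ETS-family repressor, had 8.76 with miR-146a-5p and 7.57 with mimic NC (2.28-fold), and TMEM140, a membrane protein, had 9.35 with miR-146a-5p and 8.20 with mimic NC (2.22-fold). In all 4 genes the miR-146a-5p array was the highest of the 6, by gaps of 0.42 for HESX1, 0.46 for PDGFRL, 0.57 for ETV7 and 0.48 for TMEM140 to the next array, which was let-7e-5p each time.

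**Figure D2:**
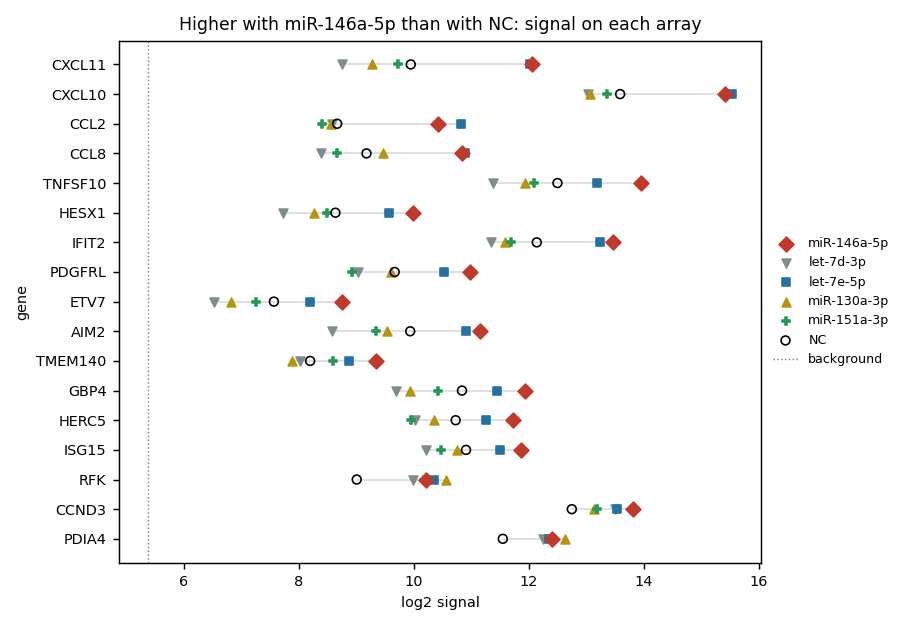
Log2 signal (horizontal axis) of 17 genes that were higher with miR-146a-5p than in the control, on each of the 6 arrays, 1 symbol per array. For CXCL11, CXCL10, CCL2 and CCL8 the miR-146a-5p and let-7e-5p symbols lie on the right together. The miR-146a-5p symbol lies furthest right for TNFSF10, HESX1, PDGFRL, ETV7 and TMEM140, with let-7e-5p next. For RFK and PDIA4 the mimic NC symbol alone lies far to the left.

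With miR-146a-5p, nearly every interferon-stimulated gene had a higher signal. Of 91 genes of the list, 87 were measured and 86 were above background. Of these 86 genes, 85 were higher than with mimic NC, against 51.1% of all genes. The exception was SIGLEC1, a macrophage lectin, at 12.02 with miR-146a-5p and 12.04 with mimic NC. The 1.5-fold threshold was passed by 26 (30.2%) of the 86 upward and by none downward, against 2.98% and 1.95% of all genes. The median difference was 0.425, against 0.01 over all genes. The genes share regulators and are not independent of each other.

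The families of this list differed in size of the difference. The guanylate-binding proteins and Mx GTPases, which attack intracellular microbes and viruses, had the largest median of the families described here, 0.82 over 7 genes. GBP4 had 11.93 with miR-146a-5p and 10.84 with mimic NC, GBP2 had 11.46 with miR-146a-5p and 10.43 with mimic NC, and MX1 had 16.20 with miR-146a-5p and 15.63 with mimic NC. The ISG15 system, which attaches a ubiquitin-like protein to other proteins, had a median of 0.40 over 5 genes. ISG15 itself had 11.87 with miR-146a-5p and 10.91 with mimic NC (1.95-fold), and its ligase HERC5 had 11.73 with miR-146a-5p and 10.73 with mimic NC (2.00-fold).

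The oligoadenylate synthetases, which activate the RNA-cutting enzyme RNase L, had a median of 0.355 over 4 genes. OASL, which lacks the synthetase activity, led them with 13.35 with miR-146a-5p and 12.55 with mimic NC (1.74-fold), while OAS3 had 14.78 with miR-146a-5p and 14.61 with mimic NC. The IFIT and IFITM genes, which bind foreign RNA or block the entry of viruses, had a median of 0.40 over the 7 genes in the list. IFIT1 had 15.20 with miR-146a-5p and 14.64 with mimic NC, and IFITM3 had 17.17 with miR-146a-5p and 17.07 with mimic NC. Signals near the upper end of the scale, such as IFITM3, can be compressed on an array, and this was not tested here.

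Genes induced mainly by interferon gamma were also among the highest. Of 14 such genes above background 13 were higher (against 51.1% of all genes) and 8 passed 1.5-fold upward (57.1%, against 2.98%), with a median of 0.77. Of the 14, 5 belong to the interferon-stimulated list too, and the median of the other 9 was 0.24. IDO1, which breaks down tryptophan, had 7.73 with miR-146a-5p and 6.76 with mimic NC (1.96-fold). SECTM1, a secreted ligand of T and NK cells, had 9.19 with miR-146a-5p and 8.15 with mimic NC (2.06-fold). CD274, the immune checkpoint ligand PD-L1, had 8.10 with miR-146a-5p and 7.38 with mimic NC, but 8.12 with let-7e-5p.

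The miR-146a-5p array was the highest of the 6 in 77 of the 86 interferon-stimulated genes (89.5%, against 15.4% of all genes). In 68 of those 77 the let-7e-5p array was the second highest. After each gene was centred on its mean over the 6 arrays, the median of the list was 0.50 with miR-146a-5p, 0.28 with let-7e-5p, -0.19 with miR-151a-3p, -0.18 with miR-130a-3p, -0.49 with let-7d-3p and 0.05 with mimic NC. The mimic NC array therefore lay between 2 arrays with higher and 3 with lower signals of these genes. The choice of comparator matters for the size. Against the median of the other 4 mimics the list's median was 0.675, and against let-7e-5p alone it was 0.185, with 78 of 86 genes higher with miR-146a-5p.

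**Figure D3:**
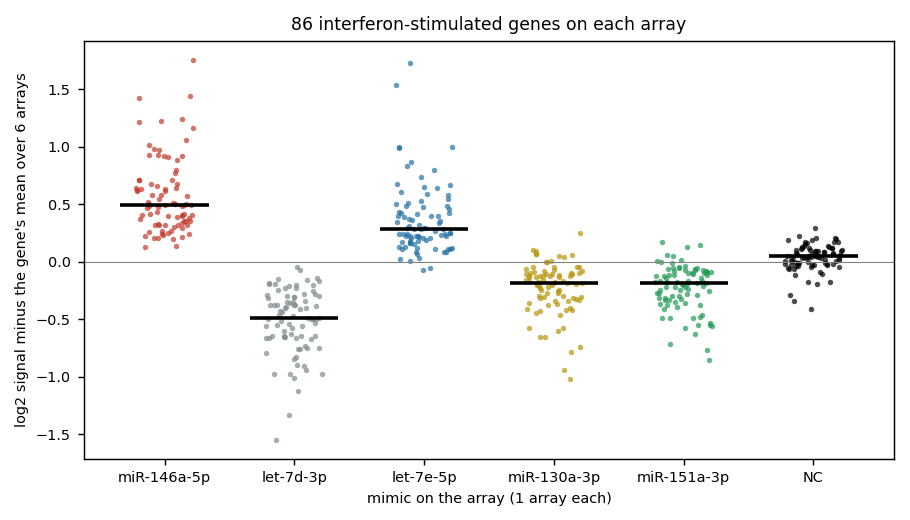
Log2 signal of the 86 interferon-stimulated genes minus each gene's mean over the 6 arrays (vertical axis), by array (horizontal axis). Points are genes and the bar is their median, which was 0.50 with miR-146a-5p, 0.28 with let-7e-5p, below 0 with the other 3 mimics and 0.05 with mimic NC.

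The upstream parts of this pathway were unequal. Of 20 interferon genes measured only IFNL3 had a mean above background, with 5.87 with miR-146a-5p and 5.94 with mimic NC. IFNB1, the main type I interferon of many cell types, was below background, with 3.80 with miR-146a-5p and 4.19 with mimic NC. The alpha interferon genes are near copies of each other, and their probe sets may not tell them apart. The interferon receptors were alike in both cultures: IFNAR1 had 12.30 with miR-146a-5p and 12.38 with mimic NC, and IFNAR2 had 14.47 with miR-146a-5p and 14.46 with mimic NC. Of 8 receptor and kinase genes only JAK2 passed 1.5-fold, with 11.74 with miR-146a-5p and 11.03 with mimic NC (1.64-fold).

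Among 13 STAT and IRF transcription factors 8 were higher and 5 lower, a share near the 51.1% of all genes, and in 8 the miR-146a-5p array was the highest of the 6 (61.5%, against 15.4%). IRF7, which amplifies interferon production, had 7.23 with miR-146a-5p and 6.30 with mimic NC (1.91-fold). IRF1 had 10.92 with miR-146a-5p and 10.08 with mimic NC (1.79-fold), although let-7e-5p had 10.85. BATF2, a partner of IRF1 in macrophages, had 9.04 with miR-146a-5p and 8.24 with mimic NC (1.74-fold). These 3 passed 1.5-fold (23.1%, against 2.98% of all genes), whereas STAT3, with 12.30 with miR-146a-5p and 12.09 with mimic NC, and IRF9, with 13.17 with miR-146a-5p and 12.97 with mimic NC, did not.

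Sensors of nucleic acid were higher in part. Of 14 genes for sensing double-stranded RNA 10 were higher (against 51.1% of all genes), with a median of 0.35, but the 8 that are not interferon-stimulated genes of the list had a median of 0.055. DHX58 (LGP2), a regulator of the RNA sensors RIG-I and MDA5, had 11.16 with miR-146a-5p and 10.61 with mimic NC. Their adaptor MAVS had 8.17 with miR-146a-5p and 8.05 with mimic NC, and the kinase TBK1 had 12.24 with miR-146a-5p and 12.28 with mimic NC. Of 6 DNA-sensing genes 5 were higher (against 51.1% of all genes), with a median of 0.385. The 4 that are not in the interferon-stimulated list had a median of 0.375. AIM2, a DNA sensor in that list, had the largest difference of the 6, with 11.15 with miR-146a-5p and 9.94 with mimic NC. The myeloid nuclear protein MNDA had 8.72 with miR-146a-5p and 7.82 with mimic NC, and the DNA sensor CGAS had 10.85 with miR-146a-5p and 10.34 with mimic NC, while the adaptor STING1 was lower with 12.24 with miR-146a-5p and 12.46 with mimic NC.

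Promoters were searched for 3 motifs because so many genes of 1 pathway were higher together. The window ran from 250 bases before to 50 after the start site of RefSeq genes (GRCh38.p14), and both strands were read. The ISRE motif, GAAA and GAAA with any 2 bases between, was present in 45 of the 65 interferon-stimulated genes with a promoter in the table (69.2%), against 4.08% of 9518 genes above background and 4.38% of all 27305 genes. The GAS motif TTCNNNGAA, which STAT dimers bind and which reads the same on both strands, was present in 29.2% of the list, 8.43% of genes above background and 9.38% of all genes. The NF-kB motif, GGGA and TTCC with any 2 bases between, was present in 10.8%, 2.15% and 1.97%. The 45 genes of the list with an ISRE match had a median difference of 0.41 and the 20 without one had 0.39, so these medians were close. Some list genes past 1.5-fold, IFIT2 and GBP2 among them, had no promoter given and are in neither median. Of the 16 list genes 1.5-fold higher with a promoter, 13 (81.2%) had the ISRE motif. Among the genes 1.5-fold higher that are not in the list, 16 of 246 (6.5%) had the ISRE motif, and among those 1.5-fold lower 12 of 181 (6.63%).

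The 250 bases before the start are printed for CXCL10, TNFSF10, ISG15 and TMEM140, which were all higher with miR-146a-5p and hold the ISRE motif, and for CXCL11, the gene with the largest difference, in which it was not found. All are given 5′ to 3′ on the strand of the gene, with matches to any of the 3 motifs in capitals. In CXCL10 (chr4:76023498-76023747, minus strand) the ISRE match begins at -221 and the NF-kB match at -177. In TNFSF10 (chr3:172523431-172523680, minus strand) the ISRE match begins at -187, on the opposite strand. In ISG15 (chr1:1013247-1013496, plus strand) 2 overlapping ISRE matches begin at -113 and -107. In TMEM140 (chr7:135147822-135148071, plus strand) it begins at -53. In CXCL11 (chr4:76036071-76036320, minus strand) a GAS match begins at -240 and an NF-kB match at -76.

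CXCL10: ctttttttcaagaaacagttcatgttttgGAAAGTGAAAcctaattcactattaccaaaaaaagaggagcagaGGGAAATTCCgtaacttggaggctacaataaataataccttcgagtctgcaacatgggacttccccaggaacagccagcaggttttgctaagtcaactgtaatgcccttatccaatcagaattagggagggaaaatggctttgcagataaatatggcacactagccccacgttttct
TNFSF10: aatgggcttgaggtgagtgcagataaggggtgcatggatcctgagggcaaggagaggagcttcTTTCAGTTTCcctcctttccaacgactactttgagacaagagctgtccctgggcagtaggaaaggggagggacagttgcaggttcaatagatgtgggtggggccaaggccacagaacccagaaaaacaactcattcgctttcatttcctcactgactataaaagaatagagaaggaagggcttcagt
ISG15: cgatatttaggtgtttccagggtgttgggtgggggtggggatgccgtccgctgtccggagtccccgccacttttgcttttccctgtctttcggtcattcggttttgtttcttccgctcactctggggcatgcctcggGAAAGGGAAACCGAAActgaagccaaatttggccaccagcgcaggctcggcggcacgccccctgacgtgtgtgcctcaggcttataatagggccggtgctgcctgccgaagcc
TMEM140: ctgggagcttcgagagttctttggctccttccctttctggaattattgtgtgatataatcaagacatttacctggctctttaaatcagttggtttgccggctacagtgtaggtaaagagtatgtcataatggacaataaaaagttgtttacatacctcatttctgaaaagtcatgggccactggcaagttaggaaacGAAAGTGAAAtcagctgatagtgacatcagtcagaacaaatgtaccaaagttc
CXCL11: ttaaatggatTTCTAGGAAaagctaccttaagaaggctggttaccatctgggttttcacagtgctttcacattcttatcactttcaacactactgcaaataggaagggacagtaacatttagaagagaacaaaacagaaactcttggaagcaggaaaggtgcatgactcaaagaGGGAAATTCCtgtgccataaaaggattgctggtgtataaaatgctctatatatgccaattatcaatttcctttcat

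A match is not a measured binding site, and a missing match says only that these letters are not in the window.

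A smaller set of genes was particular to the miR-146a-5p array. In 12 of the 11477 genes it exceeded all 5 other arrays by at least 1.5-fold, and in 10 it was below all of them by as much. Each of the other arrays had such genes too: 4 above and 17 below with let-7e-5p, 32 and 58 with miR-151a-3p, 20 and 32 with miR-130a-3p, 41 and 60 with let-7d-3p, and 6 and 20 with mimic NC. The count above for miR-146a-5p was within the range of the other 5 arrays, and the count below was under all of theirs. It was the highest of the 6 arrays in 1770 genes (15.4%) and the lowest in 1564 (13.6%).

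Of the 12 genes above, GALNT3 had the widest gap. It encodes an enzyme that starts O-linked sugar chains, and had 7.11 with miR-146a-5p, 5.74 with let-7e-5p, 5.17 with miR-151a-3p, 5.73 with miR-130a-3p, 5.52 with let-7d-3p and 5.97 with mimic NC. Some of the other arrays were at or near background, so this 2.20-fold difference from mimic NC starts from a low signal. B3GNT8 and B3GALT2, which extend sugar chains, were also in this set, with 7.55 with miR-146a-5p and 6.92 with mimic NC for B3GNT8, and 6.84 with miR-146a-5p and 5.75 with mimic NC for B3GALT2. Over the 14 O-glycan and sialic acid enzymes above background the median was 0.085, and GALNT10, a relative of GALNT3, was lower, with 7.92 with miR-146a-5p and 8.56 with mimic NC.

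CD38 consumes NAD on the cell surface. It had 7.74 with miR-146a-5p, 6.87 with let-7e-5p, 6.59 with miR-151a-3p, 6.02 with miR-130a-3p, 6.11 with let-7d-3p and 6.60 with mimic NC (2.20-fold). IL12RB1, a chain of the receptors for interleukins 12 and 23, had 7.58 with miR-146a-5p, between 6.57 and 6.77 with the other mimics and 6.75 with mimic NC (1.78-fold). None of the other 5 arrays was near it. LAMP3, a lysosomal protein of maturing dendritic cells, had 8.52 with miR-146a-5p, between 6.75 and 7.63 with the other mimics and 7.73 with mimic NC (1.73-fold).

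TNFSF10 (TRAIL), a ligand that can kill cells through death receptors, had 13.95 with miR-146a-5p, 13.18 with let-7e-5p, 12.10 with miR-151a-3p, 11.93 with miR-130a-3p, 11.38 with let-7d-3p and 12.50 with mimic NC. It was 2.73-fold higher than with mimic NC and kept a gap of 0.77 to let-7e-5p. Its receptors TNFRSF10A (10.03 with miR-146a-5p and 10.33 with mimic NC) and TNFRSF10B (8.85 with miR-146a-5p and 9.14 with mimic NC) were lower, within 1.5-fold. APOBEC3F, a cytidine deaminase that restricts retroviruses, had 10.68 with miR-146a-5p and 9.90 with mimic NC (1.72-fold). The remaining genes were TMEM229B, a membrane protein, TBX1, a T-box transcription factor, SLC24A3, an exchanger of sodium and calcium, and AMY1A, an amylase with near-identical copies. They were between 1.69-fold (AMY1A) and 1.95-fold (SLC24A3) higher. AMY1A had 6.30 with miR-146a-5p and between 5.37 and 5.68 on the other 5 arrays, at or near background. SLC24A3 was below background with mimic NC, which makes it at least 1.71-fold. Its log2 difference was 0.96 from mimic NC and 0.9 from the median of the other 4 mimics. That median was therefore below background too, and SLC24A3 passed the background filter through its miR-146a-5p signal.

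Of the 10 genes below, TIMM17B and SLC10A3 were the clearest. TIMM17B is a subunit of the translocase that brings proteins into mitochondria, and had 11.33 with miR-146a-5p, 12.21 with let-7e-5p, 12.59 with miR-151a-3p, 12.54 with miR-130a-3p, 12.71 with let-7d-3p and 12.71 with mimic NC (2.60-fold lower). Of the other 22 import genes above background 12 were higher and 9 lower, and their median was 0.025. SLC10A3, of the bile acid transporter family, had 8.24 with miR-146a-5p, between 9.09 and 9.62 with the other mimics and 9.43 with mimic NC (2.28-fold lower).

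APMAP, a membrane protein of adipocytes and other cells, had 10.07 with miR-146a-5p, between 10.79 and 10.98 with the other mimics and 10.87 with mimic NC (1.74-fold lower). ERRFI1, a feedback inhibitor of the EGF receptor, had 9.47 with miR-146a-5p, between 10.11 and 10.55 with the other mimics and 10.17 with mimic NC. SNRNP27, a protein of the splicing machinery, had 9.97 with miR-146a-5p, between 10.59 and 10.87 with the other mimics and 10.62 with mimic NC. In these 5 genes all arrays were well above background. The other 5 were weak. HES4, a repressor of the HES family, was at 5.44 with miR-146a-5p and 6.08 with mimic NC, and IRAG1-AS1 at 5.46 with miR-146a-5p and 6.45 with mimic NC. LY6G6E, AACSP1 and the neutrophil chemokine CXCL1 were below background with miR-146a-5p, so CXCL1 was at least 1.34-fold lower and the other 2 at least 1.25-fold and 1.04-fold.

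**Figure D4:**
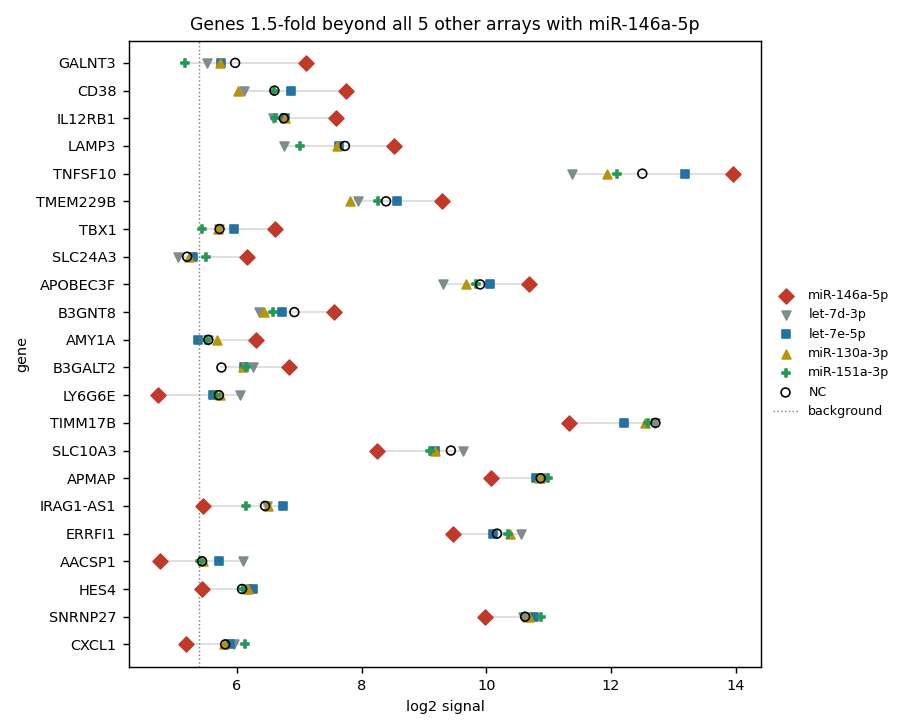
Log2 signal (horizontal axis) on each array for the 12 genes in which miR-146a-5p exceeded all 5 other arrays by at least 1.5-fold (upper) and the 10 in which it was below all of them by as much (lower). The dotted line is background at 5.387, and several of the lower genes lie beside it.

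Lower genes outside this set tended to be weak. ZNF275, a zinc finger protein, had the largest negative difference of the genes above background, with 5.48 with miR-146a-5p and 6.88 with mimic NC, but it was 6.06 with let-7d-3p and 6.19 with let-7e-5p. PABPC4L, a poly(A)-binding protein, was below background with miR-146a-5p (4.84, against 6.22 with mimic NC), which makes it at least 1.78-fold lower. IL32, an inflammatory cytokine, had 6.34 with miR-146a-5p, between 6.56 and 7.40 with the other mimics and 7.39 with mimic NC.

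Genes reported as targets of miR-146a-5p were examined as a list, since microRNAs are known to lower the messenger RNAs they recognise. Of 31 listed targets 27 were measured and 25 were above background. With miR-146a-5p 16 were higher and 9 lower than with mimic NC, with a median of 0.06, close to the 0.01 of all genes. Only COPS8 and SIAH2 passed 1.5-fold downward (8.0% of the 25, against 1.95% of all genes), and none passed upward. Against the median of the other 4 mimics COPS8 was at -0.67, still past 1.5-fold, and SIAH2 at -0.355, short of it. The miR-146a-5p array was the lowest of the 6 in 6 of the 25 targets, against 13.6% of all genes. It was the highest in 4 (16.0%, against 15.4% of all genes).

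The 6 with the lowest array were COPS8, SIAH2, TRAF6, UHRF1, NUMB and SMAD4. COPS8, a subunit of the COP9 signalosome, had 12.60 with miR-146a-5p, 13.29 with let-7e-5p, 13.31 with miR-151a-3p, 13.25 with miR-130a-3p, 13.11 with let-7d-3p and 13.20 with mimic NC (1.52-fold lower). SIAH2, a ubiquitin ligase, had 11.03 with miR-146a-5p, between 11.37 and 11.49 with the other mimics and 11.63 with mimic NC (1.52-fold lower). The remaining 9 genes of COP9 and SIAH lay between a log2 difference of -0.02 and one of 0.25, so the other subunits of the complex were not lower past 1.5-fold.

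TRAF6, the ubiquitin ligase that passes the signal of Toll-like and interleukin-1 receptors, had 10.58 with miR-146a-5p, 11.08 with let-7e-5p, 11.01 with miR-151a-3p, 10.85 with miR-130a-3p, 11.07 with let-7d-3p and 11.05 with mimic NC. It was 1.39-fold lower, short of 1.5-fold, with a gap of 0.27 to the next array. NUMB, an inhibitor of Notch, had 13.52 with miR-146a-5p, between 13.68 and 13.84 with the other mimics and 13.74 with mimic NC. SMAD4, which carries TGF-beta signals, had 11.21 with miR-146a-5p, between 11.27 and 11.45 with the other mimics and 11.40 with mimic NC. UHRF1, which maintains DNA methylation, had 8.95 with miR-146a-5p and 9.23 with mimic NC, but 9.04 with miR-151a-3p. The differences of NUMB, SMAD4 and UHRF1 were no larger than the standard deviation of 0.28 over all genes.

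Targets on the other side were led by RELB, an NF-kB subunit, with 8.94 with miR-146a-5p, between 8.49 and 9.26 with the other mimics and 8.44 with mimic NC. NOTCH1, a Notch receptor, had 10.43 with miR-146a-5p and 10.13 with mimic NC and was the highest of the 6 arrays. The receptor TLR4 had 12.05 with miR-146a-5p and 12.02 with mimic NC, the chemokine receptor CXCR4 had 10.23 with miR-146a-5p and 10.07 with mimic NC, and the small GTPase RAC1 had 15.57 with miR-146a-5p and 15.42 with mimic NC. FAS, a death receptor, was 6.70 with miR-146a-5p and 7.06 with mimic NC, but 6.15 with let-7d-3p.

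**Figure D5:**
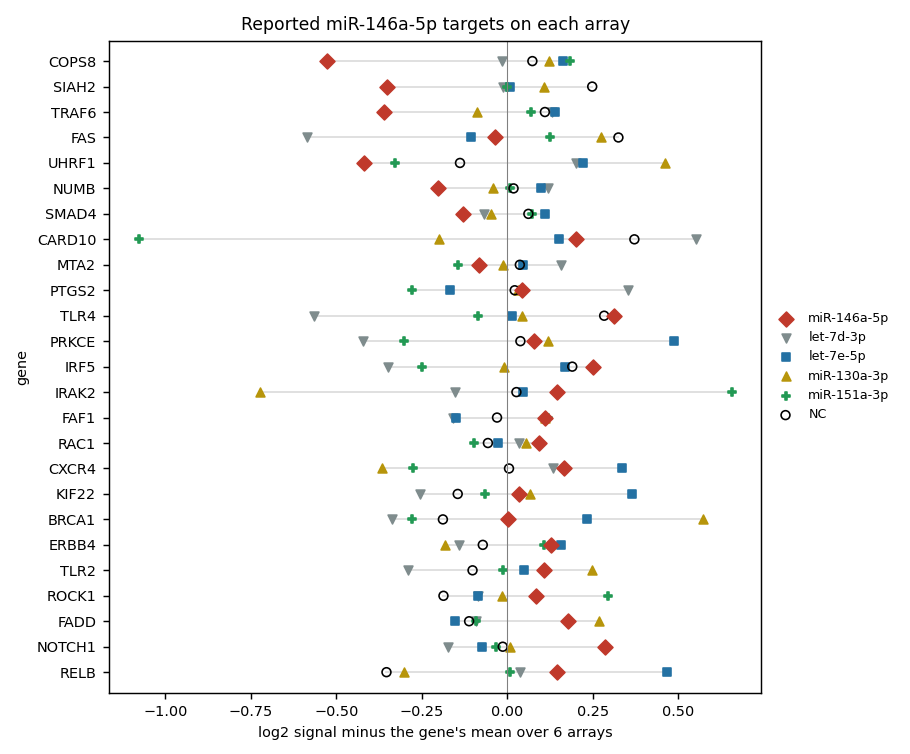
Log2 signal of 25 reported miR-146a-5p targets minus each gene's mean over the 6 arrays (horizontal axis), on each array, ordered by the difference of miR-146a-5p minus mimic NC. The miR-146a-5p symbol lies left of all others for COPS8, SIAH2, TRAF6, UHRF1, NUMB and SMAD4, and right of 0 for most targets further down.

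Around TRAF6, no adaptor or kinase gene between the receptors and NF-kB passed 1.5-fold. Of 20 adaptor and kinase genes 14 were higher and 6 lower (against 51.1% and 47.0% of all genes), and their median difference was 0.105. LY96 (MD-2), the partner of TLR4, had 8.02 with miR-146a-5p, between 8.18 and 8.31 with the other mimics and 8.49 with mimic NC. The adaptor MYD88 had 14.17 with miR-146a-5p and 13.98 with mimic NC, the ligase PELI1 had 10.09 with miR-146a-5p and 9.69 with mimic NC, and the kinase CHUK had 7.0 with miR-146a-5p and 6.47 with mimic NC. Of 12 NF-kB subunits and inhibitors 10 were higher (against 51.1% of all genes), with a median of 0.135 and none past 1.5-fold. The median of these genes against mimic NC was 0.125 with miR-151a-3p, 0.08 with let-7e-5p, 0.03 with let-7d-3p and -0.03 with miR-130a-3p. A small upward median was thus not particular to miR-146a-5p. CYLD, a deubiquitinase that restrains NF-kB, had 10.35 with miR-146a-5p, between 9.30 and 9.90 with the other mimics and 9.87 with mimic NC. RELA had 10.83 with miR-146a-5p and 10.77 with mimic NC, NFKB1 had 10.70 with miR-146a-5p and 10.67 with mimic NC, and the inhibitor NFKBIA had 12.55 with miR-146a-5p and 12.46 with mimic NC.

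Inflammatory genes that NF-kB controls differed in both directions. Of 16 above background 7 were higher and 9 lower, and their median difference was -0.07. Of these, 1 passed 1.5-fold in each direction (6.25%, against 2.98% of all genes upward and 1.95% downward). CXCL8, the neutrophil chemokine interleukin-8, had 12.10 with miR-146a-5p, 13.12 with let-7e-5p, 12.65 with miR-151a-3p, 12.95 with miR-130a-3p, 13.19 with let-7d-3p and 12.38 with mimic NC. CCL20, which attracts dendritic cells and T cells, had 13.02 with miR-146a-5p, 14.36 with let-7e-5p, 13.69 with miR-151a-3p, 13.78 with miR-130a-3p, 13.82 with let-7d-3p and 13.49 with mimic NC. The miR-146a-5p array was the lowest of the 6 for both, with differences from mimic NC of -0.28 for CXCL8 and -0.47 for CCL20. Against the median of the other 4 mimics CXCL8 was 1.91-fold and CCL20 1.72-fold lower.

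These 2 genes set the miR-146a-5p and let-7e-5p arrays apart, since both had high CXCL10 but opposite places for CCL20. IL1B, a main cytokine of these cells, had 16.28 with miR-146a-5p and 16.35 with mimic NC. IL23A, a chain of interleukin-23, was the gene past 1.5-fold upward, with 7.19 with miR-146a-5p and 6.59 with mimic NC. IL6, with 3.63 with miR-146a-5p and 3.72 with mimic NC, was below background on both arrays.

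Among the Toll-like receptors themselves, TLR3 and TLR5 differed most. TLR3, the receptor of double-stranded RNA, had 9.02 with miR-146a-5p, between 7.08 and 8.48 with the other mimics and 8.32 with mimic NC (1.63-fold higher). TLR5, the receptor of bacterial flagellin, was below background with miR-146a-5p (5.03) and 5.94 with mimic NC, at least 1.47-fold lower, but it was also low with miR-130a-3p (4.93) and miR-151a-3p (5.15). TLR1, a partner of TLR2, had 11.26 with miR-146a-5p, between 10.61 and 11.07 with the other mimics and 10.82 with mimic NC. TLR2 had 13.19 with miR-146a-5p and 12.98 with mimic NC and TLR8 had 7.19 with miR-146a-5p and 7.24 with mimic NC.

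Genes of inflammatory cell death were among those in which the miR-146a-5p array was the highest. Of 16 death receptor and caspase genes 10 were higher and 6 lower (against 51.1% and 47.0% of all genes), with a median of 0.155. The 1.5-fold threshold was passed by 3 upward (18.8%, against 2.98%) and by none downward. In 8 of the 16 the miR-146a-5p array was the highest of the 6 (against 15.4% of all genes). The lowest difference of the list was that of FAS, at -0.36. GSDMD, which forms the pores of pyroptosis, had 8.95 with miR-146a-5p, between 7.96 and 8.37 with the other mimics and 8.26 with mimic NC (1.61-fold). MLKL, the pore-forming protein of necroptosis, had 10.33 with miR-146a-5p, between 9.24 and 9.80 with the other mimics and 9.69 with mimic NC (1.56-fold). CASP1, which cleaves interleukin-1 beta and GSDMD, had 11.19 with miR-146a-5p, between 9.88 and 10.65 with the other mimics and 10.57 with mimic NC (1.54-fold). In each the next array was let-7e-5p or, for GSDMD, let-7e-5p with miR-151a-3p close behind.

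The inflammasome and interleukin-1 genes, which share CASP1 with that list, had a median of 0.30 over 11 genes, and 8 were higher (against 51.1% of all genes). IL1RN, the interleukin-1 receptor antagonist, had 15.23 with miR-146a-5p, 15.11 with let-7e-5p and 14.65 with mimic NC. PYCARD, the adaptor that joins sensors to caspase-1, had 13.13 with miR-146a-5p, between 12.70 and 12.81 with the other mimics and 12.83 with mimic NC. The sensor NLRP3 had 13.14 with miR-146a-5p and 13.01 with mimic NC and IL18 had 7.75 with miR-146a-5p and 7.84 with mimic NC.

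Genes of antigen presentation by MHC class I differed by small amounts. Of 18 genes 12 were higher and 5 lower, none passed 1.5-fold, and 9 were the highest of the 6 arrays (against 15.4% of all genes). The median was 0.20, and 0.095 over the 14 that are not in the interferon-stimulated list, of which 8 were higher. PSMB10, an immunoproteasome subunit, had 10.81 with miR-146a-5p and 10.29 with mimic NC, and ERAP2, which trims peptides, had 8.33 with miR-146a-5p and 7.88 with mimic NC. B2M had 17.18 with miR-146a-5p and 17.13 with mimic NC. Of the MHC class II list 4 genes were above background, with a median of 0.035.

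In kynurenine and NAD metabolism 9 of 11 genes were higher (against 51.1% of all genes) and 3 passed 1.5-fold upward (27.3%, against 2.98%), namely CD38, IDO1 and NADK. NADK, which makes NADP from NAD, had 11.32 with miR-146a-5p, between 10.33 and 10.91 with the other mimics and 10.58 with mimic NC (1.67-fold). KYNU, which acts further down the path from tryptophan, had 10.71 with miR-146a-5p and 10.21 with mimic NC. The interferon-regulated complement inhibitor SERPING1 had 6.60 with miR-146a-5p and 5.79 with mimic NC (1.75-fold). Its log2 difference from the median of the other 4 mimics was 1.395, which puts that median below background. Of the 11 complement genes above background 8 were lower (against 47.0% of all genes).

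In some genes, RFK and PDIA4 among them, the mimic NC array lay apart from all mimics. Of the 342 genes 1.5-fold higher with miR-146a-5p, mimic NC was the lowest of the 6 arrays in 170 and miR-146a-5p the highest in 222. Of the 224 lower genes, mimic NC was the highest in 115 and miR-146a-5p the lowest in 135. Over all 11477 genes above background mimic NC was the lowest in 1520 and the highest in 1340. Genes picked for a large difference between these 2 arrays tend to have them at the ends. The counts among the 342 and 224 genes are raised by that choice and by themselves show nothing particular to mimic NC. RFK, which phosphorylates riboflavin, had 10.21 with miR-146a-5p, between 9.98 and 10.57 with the other mimics and 9.01 with mimic NC. PDIA4, a disulfide isomerase of the endoplasmic reticulum, had 12.41 with miR-146a-5p, between 12.25 and 12.63 with the other mimics and 11.55 with mimic NC. The median of 19 unfolded protein and stress genes was 0.25 against mimic NC and 0.00 against the median of the other 4 mimics. CCND3, a cyclin of the G1 phase, was 13.81 with miR-146a-5p, between 13.14 and 13.54 with the other mimics and 12.75 with mimic NC.

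Counting only genes 1.5-fold apart both from mimic NC and from the median of the other 4 mimics left 120 higher and 55 lower genes. Of the 120 higher genes 26 were in the interferon-stimulated list, and none of the 55 lower ones was. The list holds 86 of all 11477 genes above background, so its absence among only 55 genes says little. The 94 other higher genes included ETV7, HESX1, PDGFRL, TMEM140, SECTM1, CD38 and GALNT3. The list does not hold every gene that interferon induces, so these 94 are not a group known to lie outside that response. SECTM1, for one, was named above with the genes induced mainly by interferon gamma. They also included NUB1, which helps degrade the ubiquitin-like protein NEDD8, with 12.04 with miR-146a-5p and 11.17 with mimic NC. PML, which organises nuclear bodies, had 13.20 with miR-146a-5p and 12.58 with mimic NC, and XRN1, an exonuclease that degrades decapped RNA, had 12.11 with miR-146a-5p and 11.52 with mimic NC. NUB1, PML and XRN1 were chosen with their values in view. The comparisons with mimic NC share that 1 array, so a deviation of mimic NC enters all of them.

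Housekeeping genes and the cell cycle gave the scale of unremarkable lists. Of 12 housekeeping genes 7 were higher and 4 lower, and their median difference was 0.025. Of 27 genes of the G1 and S phases 13 were higher and 13 lower, and their median difference was 0.00, while 20 genes of G2 and mitosis had a median of 0.09. The ribosomal and oxidative phosphorylation lists had medians of 0.00 and -0.03.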

How the data were processed

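The authors deposited log2 signals per probe set of Affymetrix Clariom S arrays, made with RMA in Transcriptome Analysis Console 4.0 according to the submitters' processing notes. Values run from 1.88 to 17.99 with 2 decimals. No source used here states the RMA settings or the genome build. The number of arrays, 1 per group, limits the precision.

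All 6 columns were used. Groups were taken from the titles. Symbols came from the platform annotation, and all 17709 Entrez identifiers matched RefSeq. The 20 genes with several probe sets were averaged. No test was run, and fold changes are differences of log2 signals. Thresholds were 3-fold for probe sets and 1.5-fold for genes with a mean over the 6 arrays above background. The counting was tested on simulated data.

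The comparison and the 54 gene lists were chosen with earlier results of these data known. Genes were named from the 15 highest and 15 lowest differences, the 12 widest gaps to the other arrays each way and probe sets past 3-fold. Reported targets, and the 4 highest and lowest members of a list or every member of a list of under 12, were also eligible. The text gives a selection of these, so not every reported target, and no value is given for IRAK1. CD68, CD3D, IFNB1, STAT3, IRF9, MAVS, MYD88, NFKBIA, IL6, PYCARD, NLRP3 and B2M were added as central members after their values were seen. Alternatives were another comparator, repeated quantile normalization, median centring, a lowess trend removed with a span of 0.3, a pseudocount of 32, other filters and other thresholds. Python 3.11.15, pandas 2.3.3 and statsmodels 0.14.6 were used.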

Additional observations from a re-analysis of the deposited data

Results flagged for a closer look

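A probe set without a gene symbol, and so outside the gene comparisons, had a log2 signal of 6.26 with miR-146a-5p, between 5.47 and 5.94 with the other mimics and 4.58 with mimic NC. It was above background with every mimic and below it with mimic NC, which makes miR-146a-5p at least 1.83-fold higher. The other mimics were also above mimic NC, so it was not particular to miR-146a-5p.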

How the results depend on the processing

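No paired analysis was possible because there was 1 array per group. Against the median of the other 4 mimics, the 3-fold counts were 12 higher and 0 lower, the 1.5-fold counts 227 and 124, and the interferon-stimulated median 0.675. With a lowess trend removed, 3 probe sets were 3-fold lower. A pseudocount of 32, which shrinks low signals by construction, gave 4 and 0 probe sets at 3-fold, 198 and 79 genes at 1.5-fold, and 7 above and 5 below all other arrays. With both arrays above background 4 and 0 probe sets passed 3-fold. Without a filter on background 653 genes were higher and 801 lower at 1.5-fold, and 29 were above and 34 below all other arrays. At 2-fold 111 probe sets were higher and 123 lower, and 33 genes were higher and 14 lower. With any gap, 1770 genes were above and 1564 below all other arrays. As a mean over members, the reported targets were at -0.006 and the NF-kB inflammatory genes at 0.0194, the other sign from their medians. Of 124 single genes named, AIM2 not among them, 55 moved by more than 0.22 (log2) against the median of the other 4 mimics. There 9 had the other sign, of which RFK (-0.055) alone had passed 1.5-fold against mimic NC. The other 8 included JAG1 at -0.395 and CHUK at -0.195. With mimic NC as comparator, 20 of 496 values of these genes under the 4 rescalings moved by more than this 0.22. All of them were under the pseudocount. The 0.22 is the robust spread over genes and is not a replicate error, which could not be measured. The other values of the 4 list medians moved by less than this spread.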

Other observations

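The Notch pathway was not described above. Of 12 genes above background 7 were higher with miR-146a-5p than in the control, a share near the 51.1% of all genes, and 2 passed 1.5-fold upward (16.7%, against 2.98%). DLL4, a Notch ligand, had 6.02 with miR-146a-5p, between 5.22 and 5.78 with the other mimics and 5.17 with mimic NC, which was below background. HES1, a repressor that Notch switches on, had 8.27 with miR-146a-5p, between 8.01 and 8.51 with the other mimics and 7.68 with mimic NC, and JAG1, another ligand, had 8.31 with miR-146a-5p, between 8.55 and 8.87 with the other mimics and 7.89 with mimic NC. For DLL4, HES1 and JAG1 the mimic NC array was the lowest of the 6. For HES1 and JAG1 miR-146a-5p lay among or under the other mimics. Against the median of the other 4 mimics the log2 difference was 0.41 for DLL4 and 0.025 for HES1, both short of 1.5-fold.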
